A study of Mus musculus with 13 samples.

Results

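Replication-dependent histone genes were the 68 rows of the expression table whose symbols begin with Hist1h, Hist2h, Hist3h or Hist4h, out of 25965 rows in all. They comprised 6 linker H1 genes, 19 H2A genes, 18 H2B genes, 12 H3 genes and 13 H4 genes. Of the 68, 55 lie in the Hist1 cluster, 10 in Hist2, 2 in Hist3 and 1 in Hist4. A gene was called measured where its mean log2 CPM (reads of a gene scaled to library size, on a log2 scale) over days 4 to 7 was at least 0. By this rule 7 of the 68 histone genes were measured (10.3%), against 13406 of 25965 rows of the whole table (51.6%).

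RNA-seq had been run on 13 libraries of mouse embryonic stem cells (mESCs), female and from an F1 cross with an FVB/NJ mother and a CAST/EiJ father. Day0 was 1 library of cells kept in 2i medium, which holds mESCs undifferentiated. The other 12 libraries came from cells weaned into a differentiation medium named DME HiHi, transduced with a hairpin on day 2 and placed under puromycin on day 3, controls included. On each of days 4, 5, 6 and 7 there was 1 library with a nonsilencing hairpin (Nons), 1 with hairpin Smarcc1.6 and 1 with hairpin Smarcc1.7. Both hairpins target Smarcc1, which encodes a scaffold protein of BAF, a complex that remodels nucleosomes. Each group thus had 4 libraries, 1 per day, which were treated as replicates in comparisons of groups. In comparisons of days the 3 libraries of a day, each with its own hairpin, stood as the replicates of that day. Nothing in the labels says whether days came from separate cultures, so the p-values measure only the spread between these libraries.

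Histones package DNA into nucleosomes, each with a core of H2A, H2B, H3 and H4, and H1 binds the DNA that links one nucleosome to the next. Replication-dependent histone genes supply new histones in S phase, while the replication-independent variants are made throughout the cell cycle. The mRNAs of the replication-dependent genes are unusual in ending not in a poly(A) tail but in a short stem-loop, which is bound by the protein Slbp and cleaved just downstream by a complex that contains the U7 snRNA and Lsm11. Some of these genes are also known to give longer, polyadenylated transcripts, which read past or skip the stem-loop.

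The stem-loops of the measured genes are shown because they mark where the mature histone mRNA ends and so how far each gene model runs past it. All 68 genes were matched by symbol and position to GENCODE M21, which uses the same build as the files (mm10). The 16-base consensus of the histone stem-loop was found in the transcripts of 46 of them. The most frequent form, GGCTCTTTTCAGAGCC, stood in 26 of the 46. Each sequence below is the transcript strand from 5′ to 3′ with 5 flanking bases in lower case, and the capitals mark the stem-loop.
Hist1h1c, chr13:23739507-23739532, plus strand: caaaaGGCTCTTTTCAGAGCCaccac
Hist3h2a, chr11:58955167-58955192, plus strand: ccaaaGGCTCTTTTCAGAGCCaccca
Hist1h2ae, chr13:23570663-23570688, minus strand: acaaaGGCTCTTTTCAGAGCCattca
Hist3h2ba, chr11:58949344-58949369, plus strand: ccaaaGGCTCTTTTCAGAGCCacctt
Hist1h3c, chr13:23745042-23745067, minus strand: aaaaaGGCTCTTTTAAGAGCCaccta
Hist1h4i, chr13:22040961-22040986, minus strand: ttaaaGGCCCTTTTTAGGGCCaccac

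Counted from 1 at the 5′ end of the stem-loop, and with the base of the most frequent form first, Hist1h3c differed by C10A and Hist1h4i by T4C, C10T and A13G. Each of these 6 genes has a single exon. The seventh measured gene, Hist1h2bc (chr13:23684199-23692488, plus strand), has 2 exons in M21, and its spliced model holds no match to the consensus. The exon lengths of the 22 genes without a match ran from 312 to 2620 bases, and no match says only that these letters are not in that model.

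The measured genes were mostly those whose models run well past the stem-loop. In the M21 models 74 bases followed the stem-loop in Hist1h3c, 151 in Hist1h2ae, 169 in Hist3h2ba, 330 in Hist1h4i, 840 in Hist1h1c and 1643 in Hist3h2a. Of the 23 genes with over 100 bases after the stem-loop 5 were measured, compared with 1 of the 23 with at most 100 bases and 1 of the 22 with no stem-loop in the model. Longer models also collect more reads, and the median exon length was 1249 bases in the first class, 485 in the second and 402 in the third. Per kb of exon the order of the class medians was different, at 0.308 CPM per kb, 0.457 and 0.563. The 7 measured genes were nevertheless the highest 7 of the 68 per kb, from 7.16 CPM per kb for Hist1h1c to 1.93 for Hist3h2a, and the next was Hist2h2bb at 1.91. Lengths here are those of M21, while reads are those of the deposited rows, and the 2 can differ. The Hist2h2bb row spans chr3:96269721-96279001 and its M21 model chr3:96269752-96270132. Values per kb, their order and the classes may therefore not describe the models that collected the reads.

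**Figure D1:**
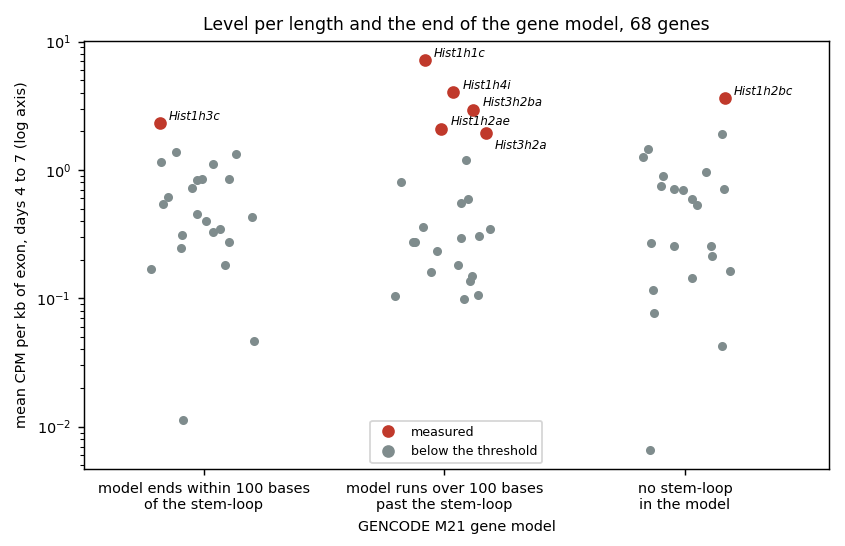
Mean CPM per kb of exon over the 12 libraries of days 4 to 7 (log axis) for each of the 68 histone genes, grouped by where the GENCODE M21 model ends relative to the stem-loop. Red points are the 7 measured genes, which range from 1.93 to 7.16 CPM per kb, and 5 of them have models that run over 100 bases past the stem-loop.

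The levels were low throughout. Recovered depth ran from 13993440 to 63548093 mapped reads per library, of which 586 to 2736 were reads in the 68 genes. No gene was without reads in all 13 libraries, but only 18 had more than 3 reads in each of them. Hist1h1c, which encodes a linker histone, alone held 24.2% of all reads of the 68 genes, and the 7 measured genes together held 57.2%. The lowest were Hist1h2ap with 3 reads and Hist1h2br with 6 reads over the 13 libraries. Summed over the 68 genes the level was 26.3 to 73.5 CPM, whereas the 13 replication-independent histone genes summed to between 1018 and 1821 CPM. The replication-dependent genes thus made up 1.54% to 6.5% of the reads of both histone groups. Whether polyadenylated RNA was selected is not given in the sources used here, and RNA labelled total went into a TruSeq RNA kit.

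Just above the threshold stood Hist1h2ae at a mean log2 CPM of 0.44, Hist3h2ba at 0.37 and Hist1h3c at 0.24. Just below it stood Hist1h1a at -0.26, Hist1h1d at -0.56 and Hist1h3a at -0.58, and Hist1h2bg and Hist1h3g, the other genes of the highest 12, were also at -0.58. The Hist2 and Hist4 clusters held no measured gene, and their highest were Hist2h2bb at -0.64 and Hist4h4 at -1.60.

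**Figure D2:**
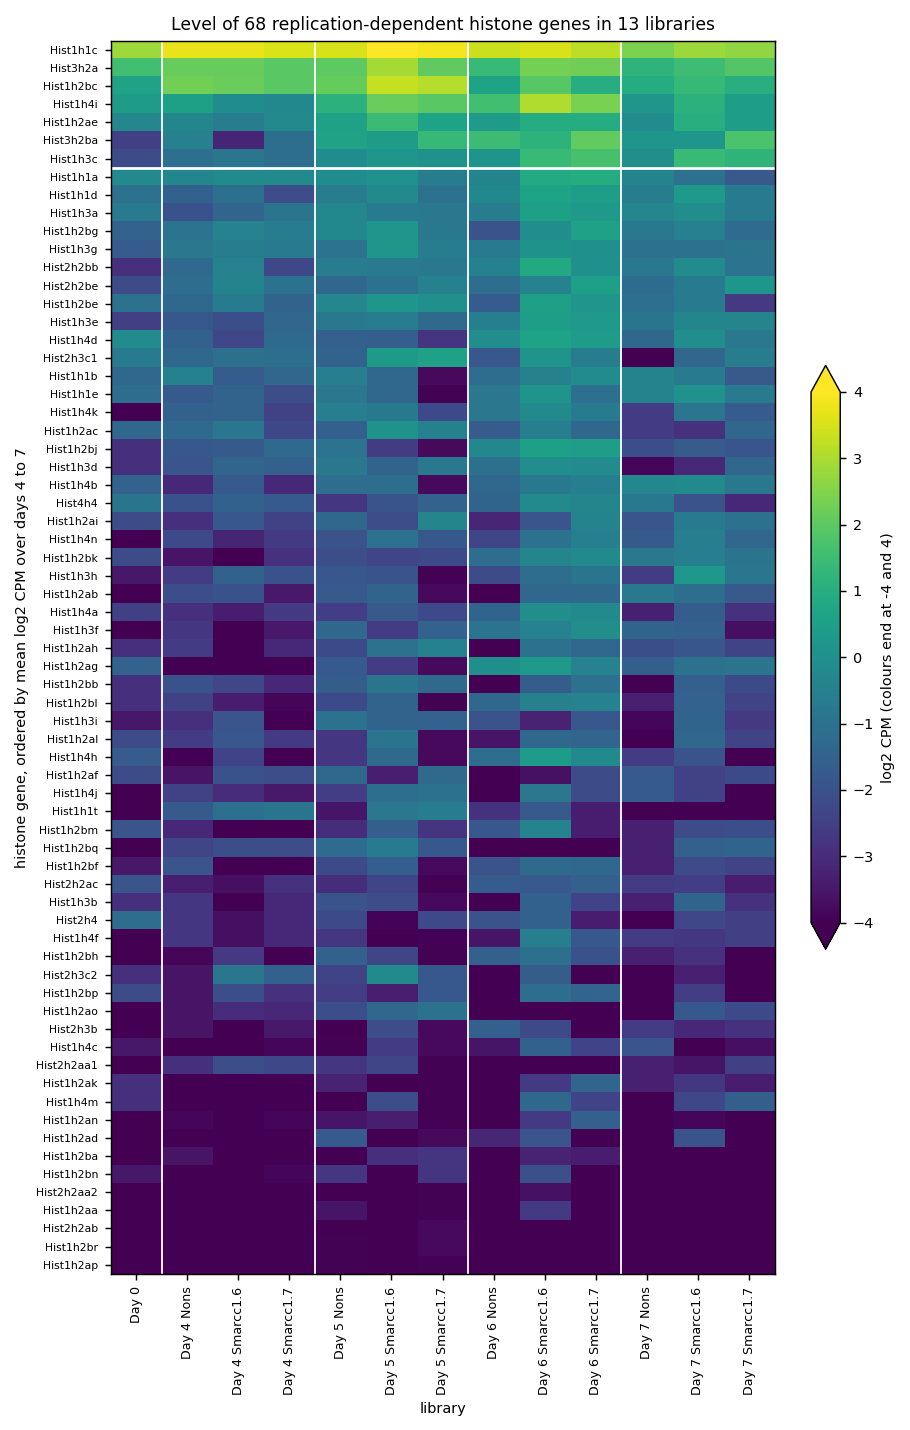
Log2 CPM of the 68 histone genes (rows, ordered by their mean over days 4 to 7) in the 13 libraries (columns). The white horizontal line separates the 7 measured genes from the 61 below the threshold, and Hist1h1c in the top row reaches 4.32 in Smarcc1.6 on day 5, beyond the end of the colour scale at 4.

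Many members are near-identical copies, which limits how their reads can be told apart. For each gene the share of 75-base windows of its transcripts that also occur in a transcript of another gene was computed, 75 bases being the read length. In 16 of the 68 genes over 80% of windows were shared, and in 5 of them all windows were. Among the measured genes the share was 6.7% in Hist1h1c, 13.9% in Hist3h2ba, 22.4% in Hist1h4i, 27.1% in Hist1h2bc, 30.6% in Hist3h2a, 34.4% in Hist1h2ae and 36.2% in Hist1h3c, so their values are less exposed to it. Hist3h2a has another limit, since the row of Trim17 starts at the same base on the same strand. The level of Trim17 followed that of Hist3h2a closely, with a difference in log2 CPM of between -0.05 and 0.30 over the 13 libraries, so the reads of these rows cannot be told apart.

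Day0 and day 6 stood apart from the rest in each share examined. Rows with pseudogene symbols took 0.337% to 0.399% of reads in Day0 and day 6, compared with 0.0928% to 0.154% in the other libraries. For these 4 libraries 85.3% to 86.5% of mapped reads lay in genes, compared with 91.6% to 92.6% in the other 9 libraries, and ribosomal protein genes took 1.92% to 2.39% of reads compared with 4.76% to 7.67%. For the histone genes these 4 libraries and the other 9 did not overlap in 3 of the 68 genes, 2 lower and 1 higher in Day0 and day 6, against 2.16% of all rows lower and 2.26% higher, a share near the background. Hist1h2bq and Hist1h2ao, with 96.1% and 93.1% of windows shared, had 0 reads in Day0 and all day 6 libraries and 3 to 20 and 1 to 17 reads in the others. Hist2h2ac, with 34.5% shared, had 6 to 11 reads in Day0 and day 6 and 0 to 10 in the others.

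Smarcc1 was lower in the hairpin libraries on every day. Its log2 CPM was 8.01 in Day0. Nons held 9.10, 8.87, 8.28 and 7.89 on days 4, 5, 6 and 7, Smarcc1.6 held 7.42, 7.40, 7.28 and 7.28, and Smarcc1.7 held 7.96, 7.78, 7.16 and 7.51. In limma fits across all measured genes Smarcc1 fell by 1.19 on the log2 scale with Smarcc1.6 (SE 0.15, adjusted p = 0.00198, n = 4) and by 0.93 with Smarcc1.7 (SE 0.15, adjusted p = 0.0187, n = 4). The call for Smarcc1.7 was lost without day 5, without day 6 or without any of 6 single libraries, with adjusted p from 0.0558 to 0.152.

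The course over days came first. Between day 4 and day 7, 5 of the 7 measured histone genes changed: Hist3h2ba, Hist1h3c and Hist1h2ae rose, and Hist1h1c and Hist1h2bc fell. Over all genes tested 72.5% changed between these days (40.7% rose and 31.7% fell), so the share of changed histone genes was near that of all genes. Over the slope per day 4 of the 7 changed (2 rose and 2 fell), against 60.5% of all genes (34.9% rose and 25.6% fell). The median level of all tested genes was itself higher on day 7, at 4.65 to 4.67 log2 CPM compared with 4.43 to 4.46 on day 4. Values with each library centred on its median are therefore given beside the contrast of day 7 with day 4. With centring 5 of the 7 genes were called in that contrast (73.3% of all genes) and 5 for the slope (61.6%), with Hist3h2a gained in both and Hist1h2ae lost in the first. The 3 genes that rose had day 4 means below the threshold and passed the filter on low values through the later days, so their rise is not independent of the filter. With no filter Hist3h2ba and Hist1h3c were still called and Hist1h2ae was not (adjusted p = 0.0644).

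**Figure D3:**
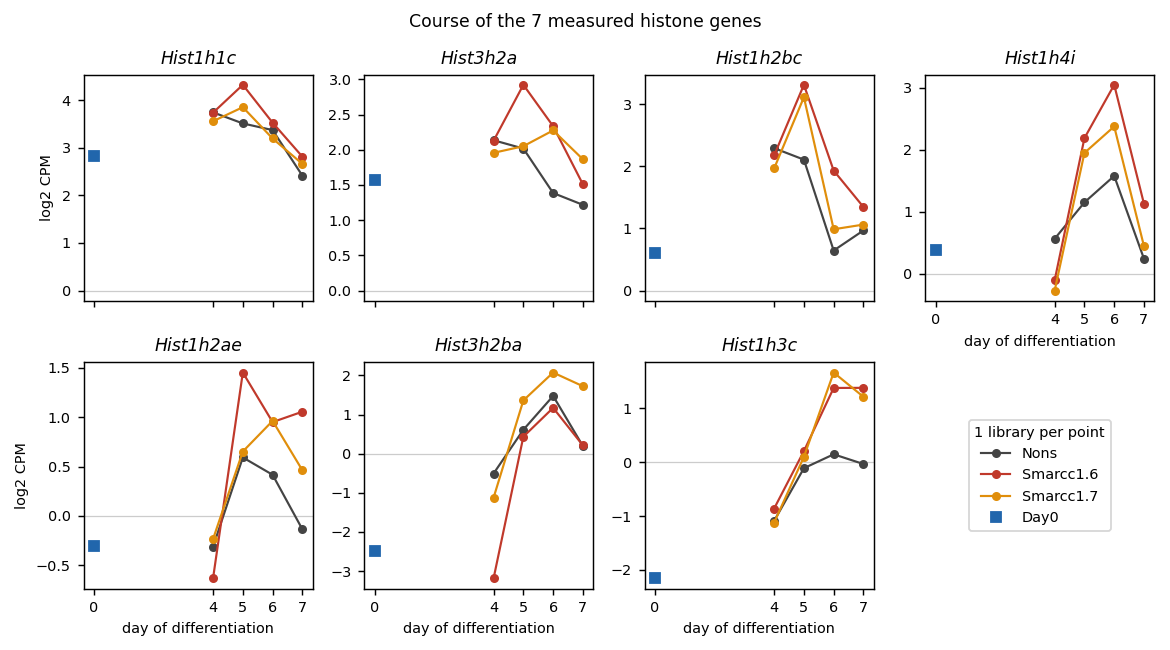
Log2 CPM of the 7 measured histone genes by day of differentiation, 1 library per point, with Nons in dark grey, Smarcc1.6 in red, Smarcc1.7 in orange and the single Day0 library as a blue square. Hist1h1c and Hist1h2bc end lower on day 7 than on day 4, while Hist3h2ba and Hist1h3c end higher in every group.

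Hist1h1c was the highest of the linker histone genes. Its log2 CPM was 2.82 in Day0. Nons held 3.74, 3.51, 3.37 and 2.41 on days 4, 5, 6 and 7, Smarcc1.6 held 3.74, 4.32, 3.53 and 2.81, and Smarcc1.7 held 3.56, 3.85, 3.19 and 2.66. All 3 day 7 libraries were below all 3 of day 4, and they were also below Day0. The gene fell by 1.05 on the log2 scale from day 4 to day 7 (SE 0.16, limma adjusted p = 0.000136), or by 1.27 with libraries centred. Per day it fell by 0.37 (SE 0.08, adjusted p = 0.00326), and by 0.16 with day 7 left out (adjusted p = 0.26), so the slope rested on day 7.

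Hist3h2a is an H2A gene of the Hist3 cluster whose reads cannot be told apart from those of Trim17, so its course may be that of either gene. It stood at 1.57 log2 CPM in Day0. Nons held 2.14, 2.02, 1.39 and 1.22 on days 4 to 7, Smarcc1.6 held 2.13, 2.92, 2.34 and 1.51, and Smarcc1.7 held 1.96, 2.05, 2.28 and 1.86. Each day 7 library was below each of day 4, with a difference in log2 CPM of -0.54 (SE 0.26, limma adjusted p = 0.084). With libraries centred the difference was -0.76 and passed the test (adjusted p = 0.0221), as did the slope, at -0.28 per day against -0.20 without centring (adjusted p = 0.0321 and 0.103). Hist1h2ae, an H2A gene of the Hist1 cluster, was at -0.31 in Day0. Nons held -0.31, 0.59, 0.42 and -0.14, Smarcc1.6 held -0.63, 1.45, 0.95 and 1.06, and Smarcc1.7 held -0.23, 0.65, 0.96 and 0.46. The lowest value of each group was that of day 4. Hist1h2ae rose by 0.85 from day 4 to day 7 (SE 0.32, adjusted p = 0.0317), and by 0.63 with libraries centred, where the call was lost (adjusted p = 0.0988). It was also lost without the day 6 libraries (adjusted p = 0.059) and without either hairpin library of day 4 or of day 7 (adjusted p = 0.0543 to 0.181), and the difference was 0.51 without Smarcc1.6 on day 4.

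Hist1h2bc, an H2B gene, was at 0.61 log2 CPM in Day0. Nons held 2.29, 2.11, 0.64 and 0.97 on days 4 to 7, Smarcc1.6 held 2.18, 3.31, 1.93 and 1.34, and Smarcc1.7 held 1.97, 3.11, 0.99 and 1.06. Days 4 and 5 were high and days 6 and 7 low in each group, with no overlap within a group. Hist1h2bc fell by 1.02 from day 4 to day 7 (SE 0.29, limma adjusted p = 0.00757), or by 1.24 with libraries centred. Its slope of -0.47 per day (SE 0.16, adjusted p = 0.0251) lost the call without day 6, without day 7, or without Nons on day 4 or either hairpin library of day 7 (adjusted p = 0.0561 to 0.189). Hist3h2ba, the H2B gene of the Hist3 cluster, ran the other way. It was at -2.48 in Day0, from 4 reads. Nons held -0.51, 0.61, 1.48 and 0.20, Smarcc1.6 held -3.18, 0.44, 1.17 and 0.21, and Smarcc1.7 held -1.12, 1.36, 2.08 and 1.73. All 3 day 4 libraries were below all 9 of the later days. From day 4 to day 7 it rose by 2.32 (SE 0.47, adjusted p = 0.00105), or by 2.09 with libraries centred. Its slope of 0.77 per day (SE 0.27, adjusted p = 0.0283) rested on day 4, since without that day it was -0.046, and it also lost the call without day 6 (adjusted p = 0.0669) or without any 1 of the 3 day 4 libraries (adjusted p = 0.0540 to 0.105).

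Hist1h3c, an H3 gene, was at -2.16 log2 CPM in Day0, from 5 reads. Nons held -1.09, -0.11, 0.15 and -0.03 on days 4 to 7, Smarcc1.6 held -0.86, 0.21, 1.38 and 1.38, and Smarcc1.7 held -1.12, 0.10, 1.67 and 1.22. Again all 3 day 4 libraries were lowest. Hist1h3c rose by 1.88 from day 4 to day 7 (SE 0.35, limma adjusted p = 0.000538), or by 1.66 with libraries centred. The slope of 0.66 per day (SE 0.14, adjusted p = 0.00207) was 0.39 without day 4 (adjusted p = 0.135). Hist1h4i, an H4 gene, was at 0.38 in Day0. Nons held 0.56, 1.15, 1.58 and 0.24, Smarcc1.6 held -0.11, 2.19, 3.05 and 1.13, and Smarcc1.7 held -0.27, 1.95, 2.38 and 0.44. Its highest value fell on day 6 in every group, and day 7 was 0.54 above day 4 (SE 0.36, adjusted p = 0.199), or 0.32 with libraries centred (adjusted p = 0.453).

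Day 6 was also set against the mean of days 5 and 7, because its libraries stand apart in the shares given above. Hist1h4i rose by 1.15 on day 6 (SE 0.31, limma adjusted p = 0.0238) and Hist1h2bc fell by 0.80 (SE 0.25, adjusted p = 0.0398). These were 2 of 7 measured genes, against 23.6% of all tested genes (15.6% rose and 7.95% fell). Neither call was firm. Hist1h2bc was 1.66 lower than on day 5 and 0.062 higher than on day 7, and Hist1h4i was 0.57 higher than on day 5 (adjusted p = 0.217) and 1.73 higher than on day 7. Hist1h4i lost its call without Smarcc1.6 on day 5 (adjusted p = 0.0515), Smarcc1.6 on day 6 (0.135) or Smarcc1.7 on day 6 (0.125). Hist1h2bc lost its call on leaving out any of 7 libraries, with adjusted p from 0.0569 to 0.187. What day 6 of the time course and what its libraries contribute cannot be told apart.

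The knockdown of Smarcc1 changed none of the 7 measured histone genes at an adjusted p under 0.05, but their levels in the hairpin libraries lay mostly above Nons from day 5 on. Of 42 same-day differences on days 5 to 7 (7 genes, both hairpins, 3 days), 39 were above 0, and on day 4 this was 2 of 14. The split of day 4 from the later days was not planned, so these counts describe it and do not test it. Over all tested genes 44.6% to 53.2% were higher in the pairs of days 5 to 7. The exceptions on days 5 to 7 were Hist3h2ba with Smarcc1.6 on days 5 and 6 and Hist1h1c with Smarcc1.7 on day 6. Both hairpins share the Nons library of their day, and all 7 genes were read in the same libraries, so these differences are not independent. Hist1h3c was above 0 in each pair of days 5 to 7. It passed the filter on low values only through the hairpin groups, so its part in this count is not independent of the filter.

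**Figure D4:**
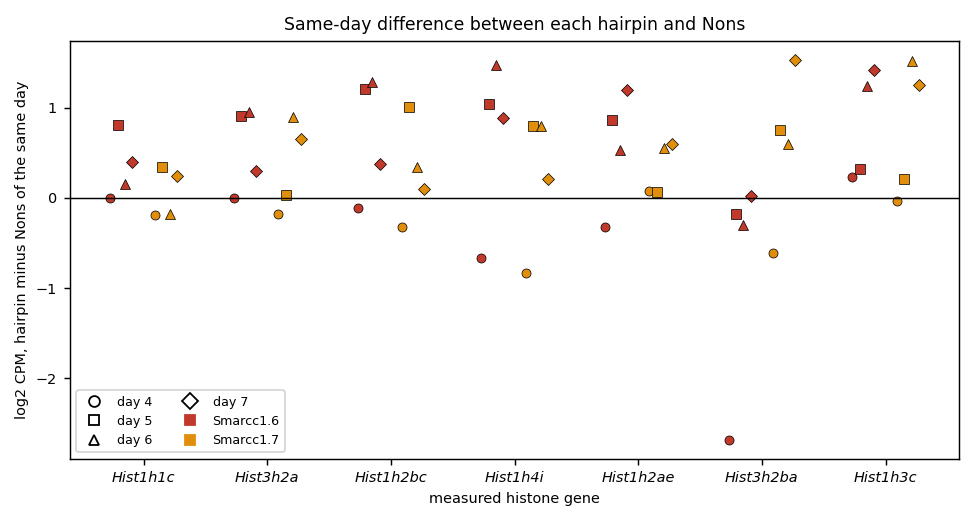
Difference in log2 CPM between each hairpin library and the Nons library of the same day for the 7 measured histone genes, 1 point per day with a shape for each day. Red points are Smarcc1.6 and orange points Smarcc1.7. The circles of day 4 lie below 0 apart from Hist1h3c with Smarcc1.6 at 0.23 and Hist1h2ae with Smarcc1.7 at 0.08, and 39 of the 42 points of days 5 to 7 lie above 0.

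In the fit of both hairpins against Nons with day as a factor, 0 of 7 measured genes were called, against 11.6% of all tested genes (6.88% higher and 4.77% lower). Both hairpin libraries of a day counted as replicates of the same condition, beside a single Nons library. The SEs and p-values of this fit thus take the hairpin libraries as independent, which they may not be. At an unadjusted p under 0.05 limma gave 2 of 7, against 28.1% of all tested genes. With no filter on low values all 68 genes entered the fit, and 2 of 68 were called, against 6.31% of all rows. The difference was largest for Hist1h3c, at 0.77 (SE 0.25, adjusted p = 0.0659, higher in 7 of 8 same-day pairs). The mean log2 CPM of Hist1h3c was -0.27 in Nons, 0.53 with Smarcc1.6 and 0.47 with Smarcc1.7, so it passed the filter through the hairpin groups, and its difference is not independent of the filter. It was 0.48 for Hist1h2bc (SE 0.23, adjusted p = 0.193), 0.46 for Hist1h4i (SE 0.28, adjusted p = 0.319), 0.44 for Hist1h2ae (SE 0.24, adjusted p = 0.249), 0.44 for Hist3h2a (SE 0.19, adjusted p = 0.161), 0.20 for Hist1h1c (SE 0.14, adjusted p = 0.373) and -0.11 for Hist3h2ba (SE 0.48, adjusted p = 0.909), which was 0.40 without day 4 or without Nons on day 4. The median difference over the 7 genes was 0.44 and that over all tested genes -0.01.

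Day 4 bore on 2 of these results. With day 4 left out, Hist1h3c was 0.99 higher (SE 0.26, limma adjusted p = 0.0374) and Hist1h4i 0.87 higher (SE 0.24, adjusted p = 0.0405), against 11.4% of all tested genes called in that fit. The limit from the filter holds for Hist1h3c here too. Leaving out only the Nons library of day 4 also called Hist1h3c and Hist1h4i, with adjusted p of 0.0276 and 0.0288, against 14.9% of all tested genes. Without day 6 no measured gene was called, and the difference was 0.57 for Hist1h3c (adjusted p = 0.329) and 0.24 for Hist1h4i (adjusted p = 0.748). The limma test of a knockdown effect that changes by the same amount each day called 0 of 7 histone genes and 0% of all tested genes. At an unadjusted p under 0.05 it gave 0 of 7 and 5.09%. No contrast of day 4 with the later days was fitted, so a step between them was not tested.

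Each hairpin was also compared with Nons alone. Smarcc1.6 against Nons called 0 of 7 measured genes, against 9.30% of all tested genes (5.59% higher and 3.71% lower), with 4 of 7 at an unadjusted p under 0.05 in limma, against 25.1% of all tested genes. The differences ran from -0.79 for Hist3h2ba (SE 0.41) to 0.80 for Hist1h3c (SE 0.30, adjusted p = 0.127). The value of Hist3h2ba, which had 7 reads in Smarcc1.6 on day 4, was -0.27 without Nons on day 4 and -0.15 without day 4. Without the Nons library of day 4, Hist1h4i was 1.09 higher (adjusted p = 0.0112) and Hist1h2bc 0.92 higher (adjusted p = 0.0278), against 12.6% of all tested genes called. Without the whole of day 4 Hist1h4i was 1.13 higher (adjusted p = 0.0171) and Hist1h2bc 0.96 higher without passing the test (adjusted p = 0.0511), against 8.53% called. Smarcc1.7 against Nons also called 0 of 7, against 2.45% of all genes (1.69% higher and 0.768% lower), with 1 of 7 and 21.2% at an unadjusted p under 0.05. Its differences ran from 0.06 for Hist1h1c (SE 0.14) to 0.74 for Hist1h3c (SE 0.30, adjusted p = 0.194). Hist1h3c was the gene of Smarcc1.7 at an unadjusted p under 0.05 and was also among those of Smarcc1.6. It passed the filter through the hairpin groups, so its differences and its part in these counts are not independent of the filter. Between the hairpins 0 of 7 were called and 0% of all tested genes. The widest gap was in Hist3h2ba, 1.35 lower with Smarcc1.6 than with Smarcc1.7 (SE 0.41, 95% interval of the difference -2.25 to -0.45, adjusted p = 0.989, the only 1 of the 7 at an unadjusted p under 0.05, against 3.95% of all tested genes), and it was lower on 4 of 4 days.

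Summed over all 68 genes, the level was 26.3 CPM in Day0 (exact Poisson 95% interval 24.2 to 28.5, counting error only). Nons held 38.4, 45.0, 39.9 and 28.6 CPM on days 4 to 7, Smarcc1.6 held 39.0, 70.8, 73.5 and 43.1, and Smarcc1.7 held 34.1, 53.4, 63.6 and 36.6. Day 7 was the lowest day of Nons, and the hairpin libraries were higher than Nons in all 6 same-day pairs of days 5 to 7, by 1.19 to 1.84 times. On day 4 the ratios were 1.02 for Smarcc1.6 and 0.889 for Smarcc1.7. Over the 4 days the mean was 38.0 ± 6.9 CPM in Nons (SD, n = 4), 56.6 ± 18.1 with Smarcc1.6 and 46.9 ± 14.0 with Smarcc1.7, and the ranges of the groups overlapped. With day 6 left out, a choice made after seeing the data, the means were 37.3, 51.0 and 41.4 CPM. Without Hist1h1c the same-day ratios of days 5 to 7 were 1.16 to 2.09. For the replication-independent histone genes the ratios in the same pairs were 0.923 to 1.12.

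**Figure D5:**
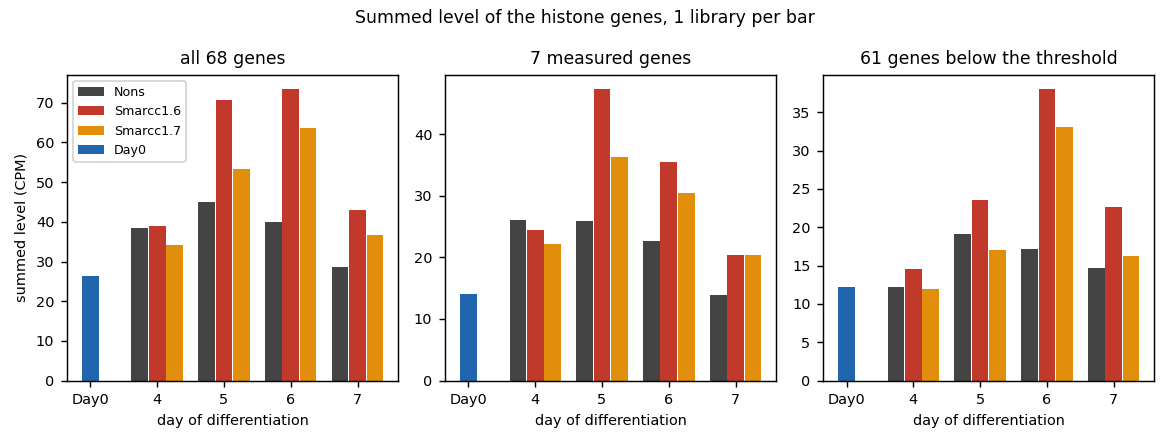
Summed CPM of all 68 histone genes, of the 7 measured genes and of the 61 genes below the threshold, 1 library per bar, by day and group. The hairpin bars of days 5 to 7 are above Nons in every pair for all 68 genes and in 5 of 6 pairs for the 61 genes.

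By class, H1 summed to 8.19 to 15.9 CPM in Nons, H2A to 5.60 to 8.90, H2B to 6.51 to 11.4, H3 to 3.02 to 5.45 and H4 to 3.51 to 6.73. On days 5 to 7 the hairpin library was higher in 6 of 6 pairs for H1, H2A, H2B and H3 and in 5 of 6 for H4. The H4 sum on day 6 was 6.73 CPM in Nons, 17.3 with Smarcc1.6 and 12.1 with Smarcc1.7, while the H1 sum that day was 13.1, 17.0 and 14.0. The ratios of hairpin to Nons on day 6 were 1.79 to 2.57 for the core histone classes and 1.30 and 1.07 for H1, a difference that was not tested.

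The 61 genes below the threshold were sparse. Their sum was 12.2 CPM in Day0. Nons held 12.3, 19.1, 17.2 and 14.7 CPM on days 4 to 7, Smarcc1.6 held 14.5, 23.5, 38.0 and 22.7, and Smarcc1.7 held 12, 17.1, 33.1 and 16.2. On day 6 the sums were 2.21 and 1.92 times that of Nons, and the exception to a higher hairpin sum on days 5 to 7 was Smarcc1.7 on day 5. Gene by gene, 58 of the 68 histone genes were higher in Smarcc1.6 than in Nons on day 6 and 52 in Smarcc1.7, compared with 47.1% and 45.4% of all tested genes. On day 4 the counts were 36 and 33 of 68, against 50.5% and 50.1% of all tested genes. On day 5 they were 39 and 31, against 46.4% and 44.6%, and on day 7 they were 51 and 38, against 53.2% and 51.0%. All tested genes passed the filter on low values and 61 of the 68 did not, so these are shares of unlike sets. With Smarcc1.7 on day 5 more genes were lower, 36, than higher.

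With no filter on low values all 68 genes could be tested, but for genes with few reads the fitted change depends on the 0.9 reads written for 0, so their reads are given instead. The knockdown fit called Hist1h4m and Hist2h3c1 (6.31% of all rows were called), of whose windows 89% and 100% were shared with other genes. Hist1h4m, an H4 gene with 3 bases after its stem-loop, had 3 reads in Day0, 2, 1, 0 and 0 in Nons on days 4 to 7, 2, 7, 15 and 12 in Smarcc1.6 and 2, 0, 6 and 17 in Smarcc1.7. Hist2h3c1, an H3 gene, had 14 reads in Day0, 24, 17, 10 and 0 in Nons, 31, 39, 41 and 23 in Smarcc1.6 and 20, 21, 21 and 33 in Smarcc1.7. Smarcc1.6 alone called 2 of 68 (5.83% of all rows), Hist1h4m and the H3 gene Hist2h3c2, with 62.6% of windows shared. Hist2h3c2 had 3 reads in Day0, 5, 9, 0 and 1 in Nons, 35, 27, 12 and 6 in Smarcc1.6 and 15, 4, 1 and 1 in Smarcc1.7. Day 7 against day 4 called 11 of 68 (47.0% of all rows), the slope per day 11 (38.8%) and day 6 against days 5 and 7 called 10 (11.8%). Among them Hist1h1t, the testis-specific linker histone, had 18, 30 and 23 reads on day 4 (Nons, Smarcc1.6 and Smarcc1.7) and 0, 1 and 3 on day 7. Hist1h2ag, an H2A gene, went the other way, with 2 reads in each day 4 library and 10, 29 and 27 on day 7.

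Neighbouring H2A and H2B genes often lie head to head and share the sequence between them. There were 12 such pairs within 500 bases, and all 12 joined an H2A to an H2B gene. The sign of the difference between partners was the same in all 13 libraries for 1 pair, Hist1h2ac and Hist1h2bc, which are 250 bases apart: the log2 CPM of Hist1h2ac was lower by 1.92 to 4.24. Hist1h2ae and Hist1h2bg are 175 bases apart, and the log2 CPM of Hist1h2ae minus that of Hist1h2bg ran from -0.17 to 2.38. These are levels per library and not per length. The H2A and H2B genes of Hist3 lie on the same strand 5152 bases apart. The windows of these 2 head-to-head pairs are shown since they hold the whole stretch between the partners. They are RefSeq promoter windows (GRCm38.p6, 250 bases before to 50 after the start), read on the strand of the named gene, with CCAAT and TATAAA on either strand in capitals.
Hist1h2ac, chr13:23683910-23684209, minus strand: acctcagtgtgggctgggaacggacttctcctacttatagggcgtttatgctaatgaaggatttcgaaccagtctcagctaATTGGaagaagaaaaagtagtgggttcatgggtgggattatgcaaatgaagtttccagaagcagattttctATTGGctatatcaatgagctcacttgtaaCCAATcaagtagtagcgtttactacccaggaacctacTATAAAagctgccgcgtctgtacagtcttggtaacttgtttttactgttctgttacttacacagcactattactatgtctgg
Hist1h2ae, chr13:23571171-23571470, minus strand: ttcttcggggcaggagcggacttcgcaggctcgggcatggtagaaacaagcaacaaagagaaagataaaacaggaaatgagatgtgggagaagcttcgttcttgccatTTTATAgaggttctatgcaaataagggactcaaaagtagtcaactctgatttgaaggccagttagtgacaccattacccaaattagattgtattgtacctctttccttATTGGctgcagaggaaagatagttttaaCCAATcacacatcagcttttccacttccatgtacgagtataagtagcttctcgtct

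The Hist1h2ac window held 3 matches to CCAAT and 1 to TATAAA, and the Hist1h2ae window 2 and 1. Of the 68 genes 62 were matched to such a window, and those not matched were Hist1h2al, Hist1h2bc, Hist1h3a, Hist1h3f, Hist2h2be and Hist2h4. CCAAT stood in 53 of the 62 (85.5%), compared with 37.9% of 27025 windows of the same length over all genes, and TATAAA in 35 of the 62 (56.5%), compared with 14.2%. The windows of head-to-head partners overlap, so the 62 are not independent. All windows of the H1, H2A, H2B and H3 genes held CCAAT, but only 3 of the 12 of the H4 genes did, while 8 of those 12 held TATAAA.

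The genes that transcribe, process or use histones were examined beside the histone genes. Of the 20 tested genes of histone transcription and 3′ end processing, 0 were called in the knockdown fit, against 11.6% of all tested genes. Slbp, which binds the stem-loop, was 0.13 lower (SE 0.07, limma adjusted p = 0.262), Npat, a coactivator of histone transcription, 0.09 lower (SE 0.06, adjusted p = 0.372), Casp8ap2, a component of the histone locus body, 0.15 lower (SE 0.07, adjusted p = 0.193) and Lsm11 0.01 higher (SE 0.09, adjusted p = 0.976). From day 4 to day 7, 6 of the 20 rose and 9 fell, against 40.7% and 31.7% of all tested genes. Lsm11 rose by 0.93 (SE 0.13, adjusted p = 5.84e-05), Casp8ap2 fell by 0.72 (SE 0.10, adjusted p = 6.81e-05), Slbp fell by 0.28 (SE 0.10, adjusted p = 0.0234), and Npat was 0.07 higher (adjusted p = 0.493).

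Genes of DNA replication and S phase fell with day. Of 30 tested, Slbp again among them, 25 fell and 1 rose from day 4 to day 7, and their summed level went from 8320 CPM to 4214 CPM in Nons. Over all tested genes 31.7% fell and 40.7% rose between these days, which is the background for each list here. Uhrf1, which couples DNA methylation to replication, fell by 1.78 (SE 0.09, limma adjusted p = 8.85e-08), and Pola1, a subunit of the priming DNA polymerase, fell by 1.67 (SE 0.11, adjusted p = 4.30e-07). Of 16 tested G2 and M phase genes 4 rose and 5 fell, and of 17 tested histone chaperone genes 2 rose and 11 fell. In the knockdown fit 0 of 30, 0 of 16 and 1 of 17 were called, against 11.6% of all tested genes. The 1 was Nap1l1, a chaperone of H2A and H2B, which fell by 0.22 (SE 0.06, adjusted p = 0.0493). Of 11 tested replication-independent histone genes 7 rose and 1 fell from day 4 to day 7. H1f0, the linker histone of cells that leave the cycle, rose by 3.38 (SE 0.22, adjusted p = 3.62e-07), and H2afx, whose phosphorylation marks DNA breaks, fell by 1.24 (SE 0.15, adjusted p = 2.86e-05). On day 6 H2afz fell by 3.31 against days 5 and 7 (SE 0.09, adjusted p = 3.22e-10), and its log2 CPM of 5.23 to 5.48 in day 6 libraries was nearer to the 5.86 of Day0 than to the 8.13 to 8.96 of the other 9.

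Markers of cell state moved with the same comparisons. Over all tested genes 6.88% were higher and 4.77% lower in the knockdown, and 40.7% rose and 31.7% fell from day 4 to day 7. Of 7 pluripotency genes 5 were higher in the knockdown and 6 fell from day 4 to day 7. Of the 7 tested genes of early differentiation 1 was higher and 2 lower in the knockdown, and 4 rose and 2 fell from day 4 to day 7. Of 4 tested fibroblast or feeder genes 2 were higher in the knockdown, Col1a2 by 2.82 (SE 0.25, limma adjusted p = 0.000923) and Thy1 by 0.83 (SE 0.20, adjusted p = 0.024), and the summed level of all 6 listed genes ran from 9.95 to 87.7 CPM in Nons, from 34.8 to 186 with Smarcc1.6 and from 20.3 to 187 with Smarcc1.7. From day 4 to day 7, 2 of these 4 tested genes rose and 2 fell. Col1a1 and Col1a2 were highest on day 7 in every group. For Col1a1 the log2 CPM was 0.06, 0.78 and 0.58 on day 4 and 6.28, 6.96 and 6.81 on day 7 (Nons, Smarcc1.6 and Smarcc1.7). Dcn and Lum, defining markers of fibroblasts, went the other way and were highest on day 4. Nons then held a log2 CPM of 2.69 for Dcn, Smarcc1.6 held 1.02 and Smarcc1.7 held 2.38, and it was 0.89 or below in the later libraries. For Lum the values of day 4 were -0.85, 0.16 and 0.34 in the same order, and later ones were -1.82 or below. Of trophoblast genes 1 of 4 and of endoderm genes 1 of 3 were lower in the knockdown. Their part in the histone levels was not tested, and in bulk libraries a change in the share of cells of a type cannot be told apart from a change per cell. Of the 10 listed RNAs that lack a poly(A) tail 0 had a row under the listed symbol, so they were not tested. They may stand under other spellings or have no row.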

How the data were processed

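Poly(A) state and strand setting are not given in the sources used here. The authors prepared TruSeq RNA libraries, sequenced them on a NextSeq500, trimmed them and aligned them to mm10 with strain differences masked (tophat or hisat2 per the methods, TopHat2 2.0.12 per the submitters' processing notes). Reads per gene, counted in Seqmonk, were deposited by the authors as log2 CPM, both alleles together. Values lay on steps of whole reads (100% of low values), which gave reads and depth. Where no read was found the deposited value stood for 0.9 reads.

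The members and gene lists were chosen with earlier results of these data known. Genes that reached a log2 CPM of 0 on average over the 12 libraries of days 4 to 7 were fitted with limma 3.58.1 in R 4.3.3 (lmFit, eBayes with trend), and p-values were adjusted by Benjamini-Hochberg over all tested genes with a threshold of 0.05. Day was a factor in group comparisons and group a covariate in day comparisons. Day0 entered no test. A fold change is on the scale of the deposited values, with no pseudocount added. Models were tested on simulated reads drawn independently for each library, with no shift of day 6. That test does not cover the limits from day 6 or from the shared Nons libraries. Named genes were the 12 highest members, the highest measured member of each class and cluster, members called in a comparison (at most 8 each way), the 3 nearest the threshold on each side, Smarcc1, up to 3 called genes each way per list and comparison, and Slbp, Npat, Lsm11 and Casp8ap2. Trim17, Lum, Dcn and the members with shared windows, the head-to-head partners and the extremes were named after their values were seen. Gene models and transcripts came from GENCODE M21 and promoter windows from RefSeq (GRCm38.p6). Exon length is the union over transcripts. Intervals and low read numbers cover counting error only. Figures were drawn with matplotlib 3.10.9, and tables were handled in Python 3.11.15 with pandas 2.3.3, scipy 1.17.1 and numpy 2.4.6. Alternatives were the filter, trend, scaling, pseudocount, covariates and leaving out days, libraries or hairpins.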

Additional observations from a re-analysis of the deposited data

How the results depend on the processing

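Depth limits the 61 genes below the threshold most: with 586 to 2736 reads over 68 genes, 33 of the 68 had more than 3 reads in Day0 and in Smarcc1.7 on day 5, compared with 60 in the libraries where most did. The number of measured genes was 7 by the mean over days 4 to 7 or over all 13 libraries, 5 over days 4, 5 and 7 (chosen after seeing the data), 4 at a threshold of 1, 3 when each library of days 4 to 7 had to reach 0 and 1 at a threshold of 2. The mean summed level in Nons was 27.9 CPM without Hist1h1c, and other alternatives moved the sums by less than 1 SD, among them leaving out day 6 or the genes with over 80% of windows shared, both chosen after seeing the data.

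Day was the block that paired libraries across groups. With no replicate block the number of histone genes called was 0 in each of the 4 group comparisons, as with it, and Smarcc1 itself lost its call in all 3 comparisons with Nons. Without a filter all 68 genes entered. Then 2 histone genes were called for knockdown (6.31% of all rows), 2 for Smarcc1.6 (5.83%) and 11 for the slope per day (38.8%). Day 7 against day 4 called 11 (47.0%) and day 6 against days 5 and 7 called 10 (11.8%). With a filter at 2, which left 1 histone gene, the slope and day 7 against day 4 called 1 and day 6 called 0. Without the trend the knockdown called 1, Hist1h3c, for which the limit from the filter holds. With group left out of the model day 6 called 1. For these settings, the filter at 2 and the days or libraries left out below, no share of all genes stands beside the counts. They show only how far the counts moved. On leaving out each day or library the counts ran from 0 to 2 for knockdown and for Smarcc1.6, from 2 to 4 for the slope, from 4 to 6 for day 7 against day 4 and from 0 to 3 for day 6, and were 0 for Smarcc1.7, for the contrast of hairpins and for knockdown by day. Direction turned for the slope of Hist3h2ba without day 4 (-0.046, in a range of -0.046 to 1.59 over days and libraries left out) and for Hist1h2bc on day 6 against day 7 only (0.062), where the cause was not tested. The other histone genes past the threshold, and Smarcc1 where past it, kept their direction under the alternatives run. Of differences not past the threshold 14 of 45 changed sign under at least 1 alternative, among them the knockdown difference of Hist3h2ba under 5 of 23.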
